A study of Mus musculus with 8 samples.

Results

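The expression of 9 erythroid genes was followed in cultured immature myeloid cells (IMCs): the adult alpha globin genes Hba-a1 and Hba-a2, the adult beta globin genes Hbb-bs and Hbb-bt, Alas2, Klf1, Epor, Car1 and Car2. They were taken by symbol from the table of raw counts, where 9 of 9 were found among 24062 genes. The rows of Hba-a1 and Hba-a2 held the same count in each of the 8 libraries and are given as 1 value, named Hba-a, which leaves 8 distinct values. Total RNA was sequenced in 2 libraries from each of 4 groups of C57BL/6 mice aged 2 months. PARP1 WT mice carried the floxed PARP1 alleles (PARP1 flox/flox) without Cre, and PARP1CKO mice carried the same alleles with lysozyme-Cre. PARP2 WT and PARP2CKO mice were the corresponding pair for PARP2. Lysozyme-Cre is expressed from the lysozyme M locus, which is active in myeloid cells, so that cells of other lineages in the culture are not its target. Bone marrow cells of every group were grown for 3 days with 40 ng/mL M-CSF, the growth factor of the macrophage lineage, before RNA was taken. How many mice contributed to a library was not given in the sources used here. A p-value sets a difference against the spread between libraries of the same group, estimated from all 8 libraries together unless stated otherwise.

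Red cells carry oxygen on hemoglobin, a tetramer of alpha and beta globin chains that each hold a heme. In erythroblasts of the bone marrow the transcription factor KLF1 and the GATA1 complex switch on the globin genes together with Alas2, which encodes the erythroid form of the first enzyme of heme synthesis. The erythropoietin receptor, encoded by Epor, keeps erythroid progenitors alive, and the carbonic anhydrases of Car1 and Car2 convert carbon dioxide to bicarbonate in red cells. Car2 is also used by osteoclasts, which arise from the M-CSF-dependent myeloid lineage, to acidify bone.

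The 5 promoters below are shown because the globin genes and Alas2 shared an order of levels across the groups while Epor did not. Each covers 250 bases before and 50 bases after the start of the gene in RefSeq on GRCm38.p6, the build that mm10 represents, and is written 5′ to 3′ along the gene. Capitals mark CACCC, the core of the sequence that KLF1 recognizes, and GATAA, a common form of the GATA factor motif, each on either strand (GGGTG and TTATC on the opposite one). RefSeq entries matched 7 of the 9 genes; Car1 and Car2 had none in the table used.
Hba-a1, chr11:32283422-32283721, plus strand: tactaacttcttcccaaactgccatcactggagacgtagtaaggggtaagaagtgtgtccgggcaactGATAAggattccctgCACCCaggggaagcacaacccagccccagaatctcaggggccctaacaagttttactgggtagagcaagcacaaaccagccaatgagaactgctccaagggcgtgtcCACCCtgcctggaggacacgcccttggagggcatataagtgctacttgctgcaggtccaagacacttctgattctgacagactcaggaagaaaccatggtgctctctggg
Hbb-bs, chr7:103827879-103828178, minus strand: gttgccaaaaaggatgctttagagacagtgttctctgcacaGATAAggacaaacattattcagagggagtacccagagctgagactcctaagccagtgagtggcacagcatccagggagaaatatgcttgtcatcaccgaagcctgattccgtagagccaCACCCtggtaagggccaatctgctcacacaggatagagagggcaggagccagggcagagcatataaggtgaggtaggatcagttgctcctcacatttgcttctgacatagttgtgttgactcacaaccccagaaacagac
Hbb-bt, chr7:103813874-103814173, minus strand: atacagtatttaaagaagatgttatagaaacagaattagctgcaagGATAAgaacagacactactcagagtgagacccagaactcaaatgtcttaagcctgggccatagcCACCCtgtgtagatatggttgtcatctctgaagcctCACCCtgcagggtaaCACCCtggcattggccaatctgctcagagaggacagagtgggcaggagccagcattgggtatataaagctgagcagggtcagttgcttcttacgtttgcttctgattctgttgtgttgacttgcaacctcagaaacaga
Alas2, chrX:150547167-150547466, plus strand: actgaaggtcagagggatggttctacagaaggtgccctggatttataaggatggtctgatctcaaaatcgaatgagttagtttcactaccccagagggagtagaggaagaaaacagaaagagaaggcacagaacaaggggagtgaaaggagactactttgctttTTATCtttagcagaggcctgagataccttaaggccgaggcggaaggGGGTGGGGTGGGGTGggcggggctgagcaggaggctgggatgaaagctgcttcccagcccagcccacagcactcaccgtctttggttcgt
Epor, chr9:21963527-21963826, minus strand: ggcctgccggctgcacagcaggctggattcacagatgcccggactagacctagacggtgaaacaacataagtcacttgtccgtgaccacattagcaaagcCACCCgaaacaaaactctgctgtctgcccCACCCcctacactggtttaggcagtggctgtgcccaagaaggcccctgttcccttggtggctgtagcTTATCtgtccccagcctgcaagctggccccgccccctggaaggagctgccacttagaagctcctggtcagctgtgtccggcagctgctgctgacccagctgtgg

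All 5 promoters held both motifs. CACCC occurred once in the Hbb-bs promoter, 90 bases before the start, and 3 times in the Hbb-bt promoter, 140, 104 and 89 bases before it. In the Hba-a1 promoter it lay 167 and 60 bases before the start. The longer form CCACACCC was found in the Hbb-bs promoter and not in those of Hbb-bt, Hba-a1, Hba-a2, Alas2, Klf1 or Epor. These short motifs are frequent: of 32544 distinct promoters of the same length, 57.7% held CACCC, 25.3% held GATAA and 3.57% held CCACACCC, on either strand. The promoters of Hba-a1 and Hba-a2 were identical over 297 of 297 bases when shifted by 3 bases, whereas those of Hbb-bs and Hbb-bt matched at 168 of 299 bases.

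The coding sequences bear on how far the globin genes can be told apart by 75-base reads. The last 75 coding bases of both pairs are shown because they hold the only mismatch of each pair, which is in capitals.
Hba-a1: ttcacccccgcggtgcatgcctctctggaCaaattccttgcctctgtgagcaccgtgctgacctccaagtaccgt
Hba-a2: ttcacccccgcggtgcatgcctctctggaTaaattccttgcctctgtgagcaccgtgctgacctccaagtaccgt
Hbb-bs: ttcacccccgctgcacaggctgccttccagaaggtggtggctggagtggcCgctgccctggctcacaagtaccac
Hbb-bt: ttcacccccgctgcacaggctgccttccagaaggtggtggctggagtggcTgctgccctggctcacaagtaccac

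Hba-a1 and Hba-a2 differed at 1 of 426 coding bases, and Hbb-bs and Hbb-bt at 1 of 441. Of all 75-base windows of the Hba-a2 transcripts, 84.6% also occurred in Hba-a1, and 67.9% of the windows of Hba-a1 occurred in Hba-a2. Between the beta globins, 51.5% of the Hbb-bs windows and 56.6% of the Hbb-bt windows were shared. No window was shared between the alpha and the beta globins or between Car1 and Car2. A read from a shared window cannot be assigned to one gene of a pair, and how such reads were counted was not given in the sources used here, so the split between Hbb-bs and Hbb-bt and the level of alpha relative to beta globin are uncertain. The table also held rows named Hbb-b1 and Hbb-b2, with the same counts as Hbb-bs and Hbb-bt, which were not counted again. On mm10, Hba-a1 (chr11:32283511-32284465, plus strand) and Hba-a2 (chr11:32296489-32297298, plus strand) lie in the alpha globin cluster. Hbb-bs (chr7:103826534-103828096) and Hbb-bt (chr7:103812524-103813996) lie on the minus strand of the beta globin cluster. Alas2 is at chrX:150547375-150570638, Klf1 at chr8:84901928-84905291, Epor at chr9:21958897-21963506, Car1 at chr3:14766216-14808368 and Car2 at chr3:14886273-14900770.

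Each library held between 37852450 and 61845125 counts on genes, and the chi-square between replicates was 8.56 to 12.9 per gene, above the value near 1 that counting error alone gives. The libraries matched their labels: Parp1 was at 202 and 211 CPM (counts per 1e6 of the library's total count times its TMM factor) in PARP1 WT and at 63.2 and 59.1 in PARP1CKO libraries, and Parp2 was at 48.2 and 48.3 in PARP2 WT and at 25.7 and 25.6 in PARP2CKO libraries. The cells carried the markers of the myeloid lineage named by the labels, with Csf1r, the M-CSF receptor, between 1134 and 1273 CPM and the 11 monocyte and macrophage markers summing to between 8397 and 15743 CPM.

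Globin transcripts were rare in IMCs and ordered by mouse line. The alpha and beta globins had their highest mean level in PARP1CKO, followed by PARP1 WT, PARP2 WT and PARP2CKO, and the 4 libraries of the PARP1 line (PARP1 WT and PARP1CKO) lay above the 4 of the PARP2 line (PARP2 WT and PARP2CKO) for Hba-a, Hbb-bs and Hbb-bt. Alas2 followed the same order of means at a few counts. Epor and Car2 were at a similar level in all groups, and Klf1 and Car1 were at the edge of detection. Over all genes tested, 9.93% had the 4 PARP1-line libraries above the 4 PARP2-line libraries, and 20.4% were separated in either direction; Hbb-bt passed the filter behind these shares only through the PARP1 line.

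**Figure D1:**
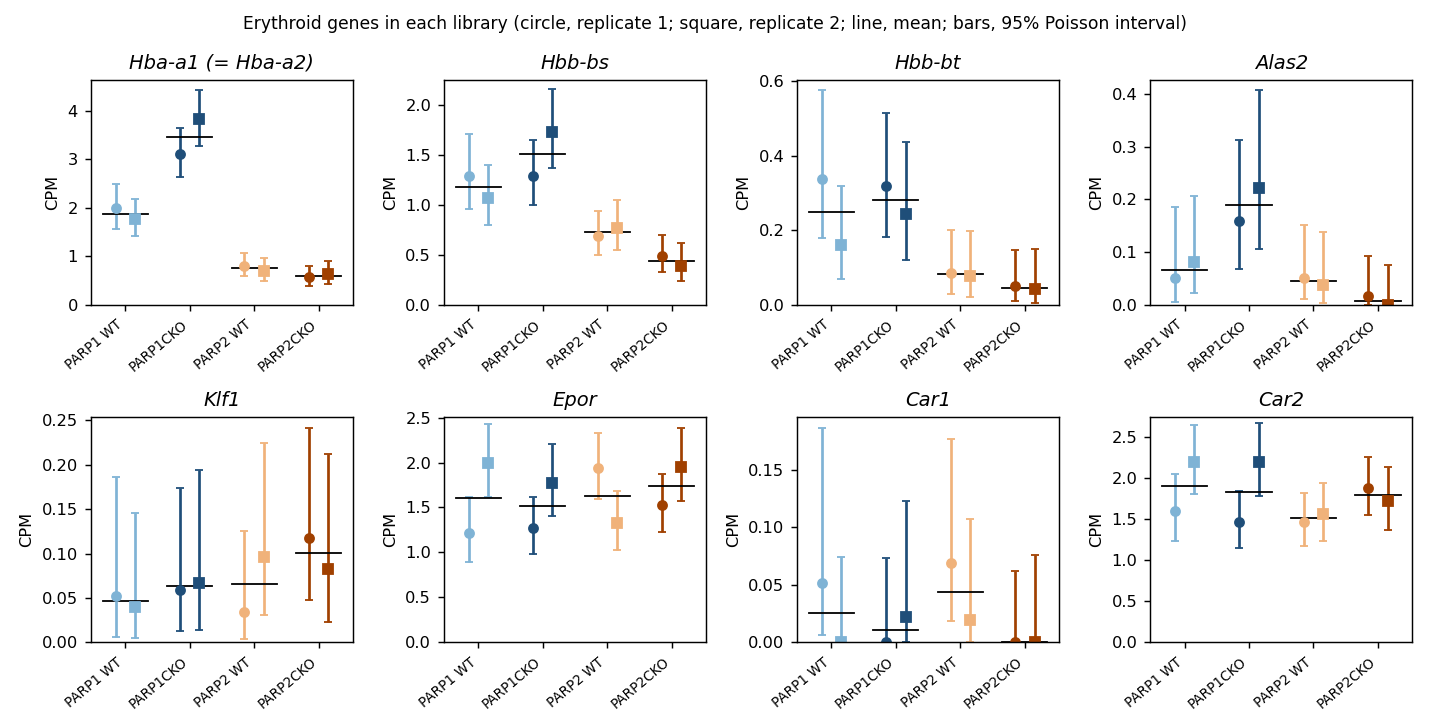
CPM (TMM-scaled; y axis, from 0) of the 8 distinct erythroid values in each of the 8 libraries, by group; circles are replicate 1, squares replicate 2, black lines group means, and bars 95% Poisson intervals that cover counting error only. Hba-a ranges from 0.570 to 3.83 CPM with the PARP1CKO libraries highest, while the groups overlap for Epor.

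Hba-a, the oxygen-carrying alpha chain, had 77 and 88 counts in PARP1 WT libraries, 157 and 173 in PARP1CKO libraries, 47 and 36 in PARP2 WT libraries, and 34 and 31 in PARP2CKO libraries. The corresponding levels were 1.99 and 1.77 CPM, 3.11 and 3.83 CPM, 0.813 and 0.692 CPM, and 0.570 and 0.642 CPM. No library of one group overlapped with another group. Group means were 1.88 ± 0.153 CPM in PARP1 WT, 3.47 ± 0.505 in PARP1CKO, 0.752 ± 0.0854 in PARP2 WT and 0.606 ± 0.0509 in PARP2CKO (SD, n = 2). The neighbours in this order that lay nearest to each other were PARP2 WT and PARP2CKO, whose lowest and highest libraries, 0.692 and 0.642 CPM, had overlapping counting intervals (0.485 to 0.958 and 0.436 to 0.911 CPM).

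Hbb-bs, the more abundant of the adult beta chains here, had 50 and 53 counts in PARP1 WT libraries, 65 and 78 in PARP1CKO libraries, 40 and 40 in PARP2 WT libraries, and 29 and 19 in PARP2CKO libraries. Its levels were 1.29 and 1.07 CPM, 1.29 and 1.73 CPM, 0.692 and 0.769 CPM, and 0.486 and 0.393 CPM. PARP1 WT and PARP1CKO overlapped, and both PARP2CKO libraries lay below both PARP2 WT libraries. Group means were 1.18 ± 0.158, 1.51 ± 0.309, 0.730 ± 0.0546 and 0.440 ± 0.0655 CPM in the same order (SD, n = 2).

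Hbb-bt, the minor beta chain here, had 13 and 8 counts in PARP1 WT libraries, 16 and 11 in PARP1CKO libraries, 5 and 4 in PARP2 WT libraries, and 3 and 2 in PARP2CKO libraries. Its levels were 0.336 and 0.161 CPM, 0.317 and 0.243 CPM, 0.0864 and 0.0769 CPM, and 0.0503 and 0.0414 CPM. The groups of the PARP1 line overlapped, and those of the PARP2 line did not but rested on at most 5 counts a library.

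The sum of the globin levels, with the alpha value used once, came to 3.62 and 3.00 CPM in PARP1 WT libraries, 4.72 and 5.79 in PARP1CKO libraries, 1.59 and 1.54 in PARP2 WT libraries, and 1.11 and 1.08 in PARP2CKO libraries. Alpha globin made up 57.1% of these counts in PARP1 WT, 66.0% in PARP1CKO, 48.3% in PARP2 WT and 55.1% in PARP2CKO, with both libraries of a group summed. The exact 95% binomial intervals were 51.2% to 62.9%, 61.7% to 70.1%, 40.6% to 56.0% and 45.7% to 64.3%, so that PARP1CKO and PARP2 WT were apart and every other pair of groups overlapped. By library the alpha share ranged from 45.0% in PARP2 WT replicate 2 to 66.0% in both PARP1CKO libraries. Hbb-bt made up between 9.09% and 20.6% of the beta globin counts of a library, and the intervals of all 8 libraries overlapped. These intervals cover counting error only, since the reads carried no molecular identifiers. The level of the alpha share also depends on how reads from shared windows were counted, which touches more of the alpha than of the beta transcripts.

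**Figure D2:**
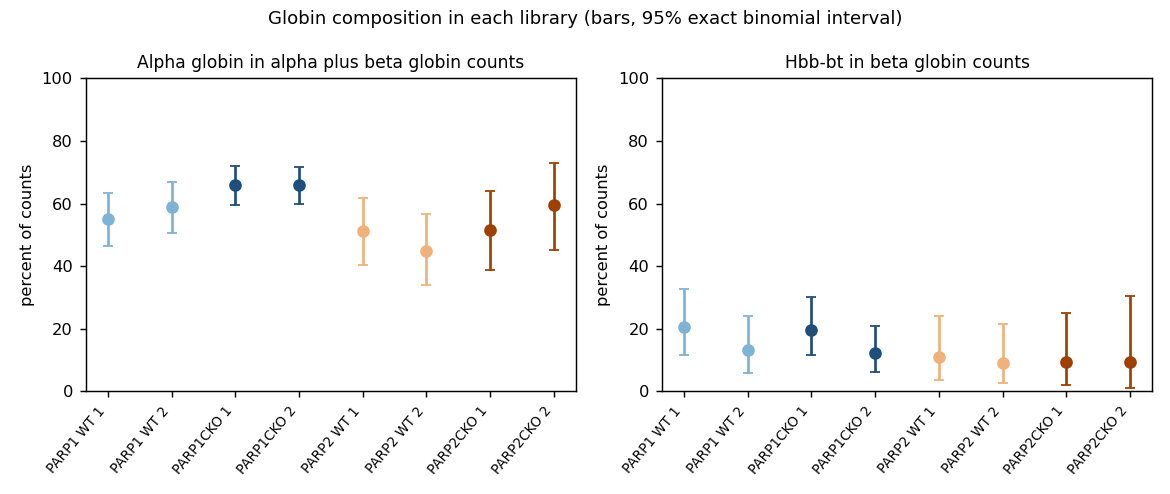
Percent of counts (y axis, 0 to 100) in each library for the alpha value within alpha plus beta globin counts (left) and for Hbb-bt within beta globin counts (right); points are libraries and bars exact 95% binomial intervals. The alpha share is 66.0% in both PARP1CKO libraries and between 45.0% and 59.6% in the other 6.

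Per kilobase of exon, the mean level over the 8 libraries was 2.07 CPM for Hba-a1, 1.26 for Hbb-bs, 0.816 for Epor, 0.727 for Car2 and 0.233 for Hbb-bt. Klf1, Alas2 and Car1 followed at 0.0448, 0.0322 and 0.0162 CPM per kilobase. By mean CPM, Car2, Hba-a1 and Epor ranked 10882, 10929 and 10966 among the 24062 genes, and Alas2 ranked 13785, which places the members among genes of low level.

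Alas2, the erythroid heme enzyme, had 2 and 4 counts in PARP1 WT libraries, 8 and 10 in PARP1CKO libraries, 3 and 2 in PARP2 WT libraries, and 1 and 0 in PARP2CKO libraries. Its mean level was 0.0661 CPM in PARP1 WT, 0.190 in PARP1CKO, 0.0452 in PARP2 WT and 0.00838 in PARP2CKO. Both PARP1CKO libraries lay above both PARP1 WT libraries, and both PARP2CKO libraries below both PARP2 WT libraries, but the 30 counts in all were too few for the filter on low counts. For Klf1, the activator of adult beta globin, there were 2 and 2 counts in PARP1 WT libraries, 3 and 3 in PARP1CKO libraries, 2 and 5 in PARP2 WT libraries, and 7 and 4 in PARP2CKO libraries. Its order of group means ran opposite to that of the globins between the lines, with the highest mean, 0.100 ± 0.0244 CPM (SD, n = 2), in PARP2CKO and the lowest, 0.0460 ± 0.00805, in PARP1 WT. The counting intervals of all 8 libraries overlapped, so no difference in Klf1 was detectable at this depth. Car1, a carbonic anhydrase of red cells, had 2 and 0 counts in PARP1 WT libraries, 0 and 1 in PARP1CKO libraries, 4 and 1 in PARP2 WT libraries, and none in either library of PARP2CKO. With 8 counts in total and 4 libraries at 0, no fold is given for it.

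Epor, the receptor of the erythroid survival hormone, had 47 and 99 counts in PARP1 WT libraries, 64 and 80 in PARP1CKO libraries, 112 and 69 in PARP2 WT libraries, and 91 and 94 in PARP2CKO libraries. Its levels were 1.21 and 2.00 CPM, 1.27 and 1.77 CPM, 1.94 and 1.33 CPM, and 1.53 and 1.95 CPM. Libraries of the same group differed by as much as libraries of different groups, and the 4 group means lay between 1.52 and 1.74 CPM. Car2 had 62 and 109 counts in PARP1 WT libraries, 74 and 99 in PARP1CKO libraries, 85 and 81 in PARP2 WT libraries, and 112 and 83 in PARP2CKO libraries. Its levels were 1.60 and 2.20 CPM, 1.47 and 2.19 CPM, 1.47 and 1.56 CPM, and 1.88 and 1.72 CPM. Both PARP2CKO libraries of Car2 were above both PARP2 WT libraries, and the 2 groups of the PARP1 line overlapped.

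Hba-a lay higher in PARP1CKO, by a difference that did not pass the test over all genes. In PARP1CKO against PARP1 WT, Hba-a differed by 0.88 ± 0.175 on the log2 scale (SE), or 1.85-fold, with an unadjusted p of 0.000722 and an adjusted p of 0.156 from edgeR's quasi-likelihood test. Hbb-bs differed by 0.36 ± 0.226 (adjusted p = 0.578) and Hbb-bt by 0.23 ± 0.428 (adjusted p = 0.867). For Epor the difference was -0.11 ± 0.301 (adjusted p = 0.919) and for Car2 it was -0.07 ± 0.232 (adjusted p = 0.927). Of the 5 members that passed the filter, 0 passed an adjusted p of 0.05, against 0.106% of all 13197 genes tested. At an unadjusted p under 0.05 there was 1, against 11.3% of all genes. The likelihood-ratio test called 1, Hba-a (adjusted p = 0.00319; 1.11% of all genes were called), and DESeq2, which called 0.652% of all genes and gave Hbb-bs and Hbb-bt no adjusted p, called 0. Without the filter on low counts the quasi-likelihood test also called Hba-a (adjusted p = 0.0312; 0.576% of all genes were called), so that its call depends on the test and the filter. The groups were apart, higher in PARP1CKO, for Hba-a, which was 1 of the 5 members that passed the filter, and for Alas2 and Klf1, which did not pass it. Over all genes that passed the filter, 21% were apart and higher, 20.2% lower and 41.2% either.

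In the PARP2 line the globins lay lower in PARP2CKO, and no member passed the test. PARP2CKO against PARP2 WT gave -0.32 ± 0.229 for Hba-a (adjusted p = 0.954), -0.72 ± 0.270 for Hbb-bs (unadjusted p = 0.0269, adjusted p = 0.940) and -0.79 ± 0.717 for Hbb-bt (adjusted p = 0.962). Epor differed by 0.08 ± 0.287 (adjusted p = 0.991) and Car2 by 0.25 ± 0.229 (adjusted p = 0.963). With the quasi-likelihood test 0 of 5 members were called, against 0.053% of all genes, and 1, Hbb-bs, had an unadjusted p under 0.05, against 4.83% of all genes. The likelihood-ratio test, which called 0.296% of all genes, and DESeq2, which called 0.205%, called 0 members. Of the 5 members that passed the filter, the groups did not overlap for Hba-a, Hbb-bs and Hbb-bt, lower in PARP2CKO, and for Car2, higher. Alas2 and Car1, which did not pass it, were also apart and lower. Among all genes that passed, 18.8% were lower and 18.4% higher in this way, 37.2% in all.

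The direct test of whether the effects of PARP2 and PARP1 loss differed gave -1.20 ± 0.289 for Hba-a (unadjusted p = 0.00247, adjusted p = 0.384) and -1.07 ± 0.352 for Hbb-bs (unadjusted p = 0.0142, adjusted p = 0.582). For Hbb-bt it gave -1.02 ± 0.834 (adjusted p = 0.792), for Epor 0.18 ± 0.416 (adjusted p = 0.935) and for Car2 0.33 ± 0.326 (adjusted p = 0.829). Thus 0 of 5 members passed the quasi-likelihood test, against 0.0152% of all genes, and 2 had an unadjusted p under 0.05, against 7.69%. The likelihood-ratio test, which called 0.546% of all genes, and DESeq2, which called 0.341%, called 0 members, so that a difference between the effects was not shown.

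The difference between the Cre-free groups of the 2 lines was the one that passed the test. Hba-a was lower in PARP2 WT than in PARP1 WT, with a log2 difference of -1.31 ± 0.202, or 2.48-fold (adjusted p = 0.0126, quasi-likelihood test). Hbb-bs differed by -0.68 ± 0.242 (unadjusted p = 0.0200, adjusted p = 0.177) and Hbb-bt by -1.52 ± 0.529 (unadjusted p = 0.0185, adjusted p = 0.173). The values were 0.01 ± 0.295 for Epor (adjusted p = 0.991) and -0.34 ± 0.233 for Car2 (adjusted p = 0.473). Thus Hba-a was the 1 member called, against 3.16% of all genes, and Hba-a and Hbb-bs had an unadjusted p under 0.05, against 18.9%. Hbb-bt also had one, but it passed the filter on low counts only through its PARP1-line libraries, so its value does not support a lower level in PARP2 WT. The likelihood-ratio test, which called 6.9% of all genes, and DESeq2, which called 4.18%, also called Hba-a and no other member. The groups did not overlap, lower in PARP2 WT, for Hba-a, Hbb-bs and Car2, nor for Hbb-bt, which is subject to the same limit, against 25.2% of all genes lower, 26.7% higher and 51.9% in either direction. Line, litter and handling cannot be told apart in this comparison. The call of Hba-a was lost without PARP1 WT replicate 1 (-1.23, adjusted p = 0.0961) and without PARP2 WT replicate 2 (-1.21, adjusted p = 0.0791).

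**Figure D3:**
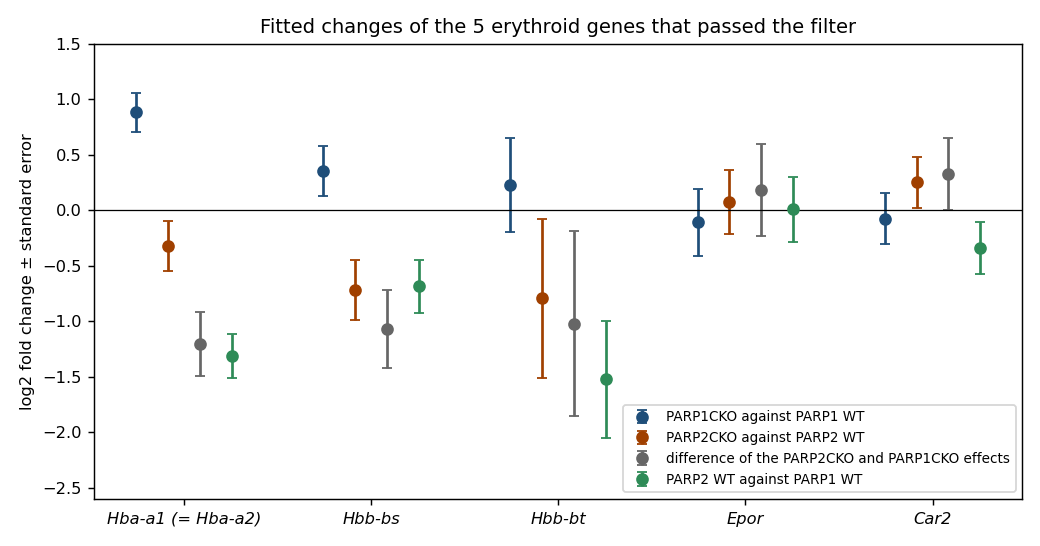
Fitted log2 fold change (y axis; points, with bars of 1 standard error) of the 5 members that passed the filter on low counts, in the 4 comparisons. The Hba-a point for PARP2 WT against PARP1 WT, at -1.31, is the one that passed the adjusted p of 0.05; Epor stays near 0 in all 4.

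Across the 8 libraries, the log2 CPM of Hba-a correlated with that of Hbb-bs (Pearson r = 0.934), Hbb-bt (0.924) and Alas2 (0.909). These are descriptions over libraries that share groups, lines and, between the beta globins, reads. With Epor the r of Hba-a was -0.19, with Car2 it was 0.27 and with Klf1 it was -0.45. Among 11443 other genes with a mean of at least 1 CPM, those most like Hbb-bs were Aars, a tRNA synthetase (r = 0.990), the matrix metalloproteinase gene Mmp9 (0.984) and the chemokine receptor gene Cxcr2 (0.980), over 8 libraries. The genes most like Car2 were Lyrm1 (0.910), Taf4a (0.908) and Wdr44 (0.899). For Car1 they were Rnf170 (0.952), Fdft1 (0.928) and Taf7 (0.895), where Car1 itself had between 0 and 4 counts.

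The other globin genes were at or near 0. Of 6 embryonic, fetal and theta-like globin genes in the table, Hba-x, Hbb-bh1 and Hbb-bh2 had 0 counts in all 8 libraries, and Hbb-y, Hbq1a and Hbq1b had at most 3 counts in any library. The globin counts of these cultures thus came almost wholly from the rows of the adult genes.

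Genes of heme synthesis lay close to the median of all genes. All 11 genes of the heme list passed the filter, and their median log2 difference was 0.01 in PARP1CKO against PARP1 WT, -0.05 in PARP2CKO against PARP2 WT and 0.05 between the Cre-free groups. The medians of all genes tested were 0.0059, -0.0014 and 0.0013. Alas1, which encodes the form of the first heme enzyme used outside red cells, had 115 and 128 CPM in PARP1 WT libraries, 122 and 127 in PARP1CKO libraries, 156 and 152 in PARP2 WT libraries, and 159 and 152 in PARP2CKO libraries. It was higher in PARP2 WT than in PARP1 WT by 0.34 ± 0.055 (adjusted p = 0.0154, quasi-likelihood test), the direction opposite to Hba-a. It was the 1 gene of 11 called, against 3.16% of all genes. The mitochondrial iron importer gene Slc25a37 lay between 64.3 and 74.4 CPM, and Fech, the enzyme that inserts iron into heme, between 59.7 and 66.3 CPM. Neither passed in any comparison.

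Genes of the red cell membrane were mostly low. Of 19, 11 passed the filter and 4 had at most 3 counts in any library, with medians of 0.23 in the PARP1 comparison, 0.07 in the PARP2 comparison and 0.02 between the Cre-free groups. None was called by the quasi-likelihood test or DESeq2. Of the 11, 1, 0 and 2 had an unadjusted p under 0.05 in these comparisons, against 11.3%, 4.83% and 18.9% of all genes. The most abundant were Epb4.1, a cytoskeletal protein of many cell types, between 240 and 259 CPM, Gypc, between 13.4 and 15.8 CPM, and the spectrin gene Sptb, between 4.42 and 8.61 CPM. Slc4a1, the band 3 anion exchanger of red cells, was singled out after its values were seen. It was at 0.207 and 0.222 CPM in PARP1 WT libraries, 0.297 and 0.619 in PARP1CKO libraries, 0 and 0.0769 in PARP2 WT libraries, and 0.0838 and 0.0207 in PARP2CKO libraries, and it passed the filter only through its PARP1-line libraries, so these values are a description. Between the Cre-free groups Slc4a1 missed the quasi-likelihood threshold (adjusted p = 0.206). The likelihood-ratio test, which called 6.9% of all genes there, called it with Tmod1. Because of how Slc4a1 passed the filter, its call does not support a lower level in PARP2 WT.

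Of 13 erythroid transcription factor genes, 11 passed the filter, with medians of -0.04, -0.08 and -0.08 in the same comparisons. Tal1, a partner of GATA1, was lower in PARP2 WT than in PARP1 WT, with a log2 difference of -0.36 ± 0.064 (adjusted p = 0.0217). It had 29.8 and 31.8 CPM in PARP1 WT libraries, 30.0 and 27.7 in PARP1CKO libraries, 24.5 and 23.3 in PARP2 WT libraries, and 22.4 and 23.8 in PARP2CKO libraries. Tal1 was the 1 gene of the 11 called by the quasi-likelihood test, against 3.16% of all genes. In that test 2 of the 11, Tal1 and Bcl11a, had an unadjusted p under 0.05, against 18.9% of all genes. Tal1 is also expressed by mast cell, megakaryocyte and stem cell lineages. The most abundant of the list, Lmo2, Ldb1 and E2f2, are not restricted to erythroid cells and passed in no comparison. In the erythropoietin pathway 9 of 10 genes were tested, among them Lyn, Bcl2l1 and Jak2, and the quasi-likelihood test called 0 in all 4 comparisons, with medians of -0.03, -0.04 and -0.06 in the first 2 comparisons and between the Cre-free groups. Of these, 2, 0 and 0 had an unadjusted p under 0.05, against 11.3%, 4.83% and 18.9% of all genes. The likelihood-ratio test called 1 (Pim1, in the PARP1 comparison, where it called 1.11% of all genes) and DESeq2 called 0. Of 14 carbonic anhydrase genes besides the members, 6 were tested, and their medians were 0.02, 0.13 and 0.07. Car13, Car9 and Car5b were the most abundant, and 0 were called by the quasi-likelihood test. The likelihood-ratio test called Car5b between the Cre-free groups, where it called 6.9% of all genes, and DESeq2 called none. The same gene was the 1 with an unadjusted p under 0.05, against 18.9% of all genes.

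Along with Hba-a, 5 B cell markers and Kit of the basophil and mast cell list were called lower in PARP2 WT than in PARP1 WT. Of 6 B cell markers tested, 5 were called, each lower in PARP2 WT than in PARP1 WT, against 3.16% of all genes called. The other, Igll1, also lay lower, but it passed the filter on low counts only through its PARP1-line libraries. Its value therefore does not support a lower level in PARP2 WT. The median of the 6 was -1.80. The summed level of the list was between 27.7 and 40.3 CPM in the PARP1 line and between 7.91 and 10.8 CPM in the PARP2 line. Cd79a, a chain of the B cell receptor complex, was at 9.79 and 8.20 CPM in PARP1 WT and at 2.75 and 2.42 in PARP2 WT libraries. All 8 basophil and mast cell markers had a log2 difference below 0, with a median of -0.72, whereas 50.4% of all genes were above 0. They summed to between 55.1 and 60.1 CPM in the PARP1 line and between 25.4 and 35.1 CPM in the PARP2 line. Of these markers, Fcer1a passed the filter on low counts only through its PARP1-line libraries. Kit, the stem cell factor receptor that early erythroid progenitors also carry, was the 1 of the 8 called and differed by -0.70 ± 0.082 (adjusted p = 0.00429). At an unadjusted p under 0.05 there were 7 of the 8, Fcer1a among them, against 18.9% of all genes. The likelihood-ratio test called 5 (Fcer1a, Mcpt8, Prss34, Cpa3 and Kit), against 6.9% of all genes. DESeq2 called 3 (Prss34, Cpa3 and Kit), against 4.18%. Because of how Fcer1a passed the filter, its value does not support a lower level in PARP2 WT. The 9 megakaryocyte markers had a median of -0.07, with none called by the quasi-likelihood test, the likelihood-ratio test or DESeq2. In the quasi-likelihood test 1 had an unadjusted p under 0.05, against 18.9% of all genes. Their sums overlapped between the lines, from 283 to 404 CPM. The 11 monocyte and macrophage markers had a median of 0.10, with Lyz2 and Mertk among those called higher in PARP2 WT. Neutrophil markers had a median of 0.22 with 3 of 11 called, against 3.16% of all genes. Elane and Prtn3 were called higher and Retnlg lower (-0.79) in PARP2 WT. The likelihood-ratio test called 6 and DESeq2 called 5, against 6.9% and 4.18% of all genes. Osteoclast markers had a median of 0.57 with 3 of 9 called, against the same 3.16%. Ctsk and Atp6v0d2 were called higher and Mmp9 lower (-0.63), and both other tests called 4. Eosinophil markers had a median of -0.31 and T and NK cell markers of -0.09, with 0 of 5 and 0 of 3 called. At an unadjusted p under 0.05 there were 1 (Il5ra) and 0, against 18.9% of all genes. The likelihood-ratio test called Il5ra and DESeq2 none. Il5ra passed the filter on low counts only through its PARP1-line libraries, so its value does not support a lower level in PARP2 WT. No B cell, basophil or mast cell marker listed stood at 0 in any library. In bulk RNA, fewer cells of a type and less RNA per cell cannot be told apart.

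**Figure D4:**
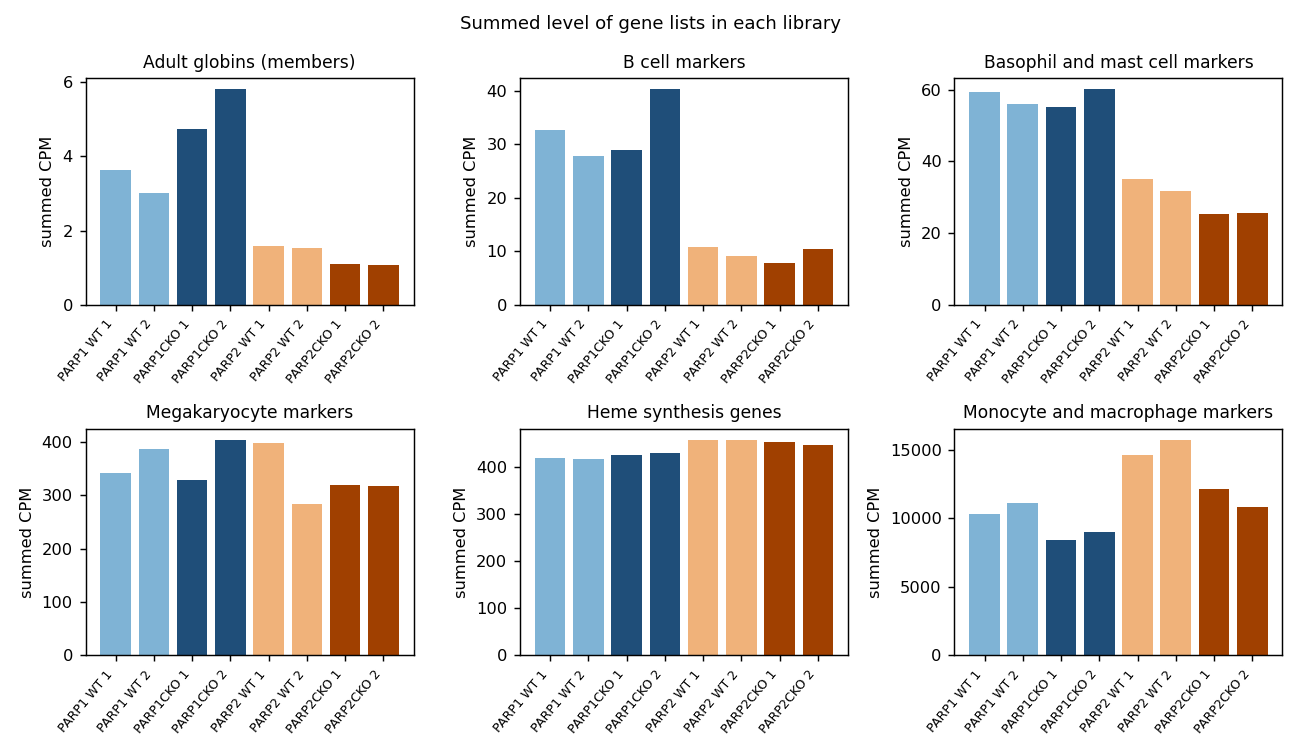
Summed CPM (y axes, each from 0) of the adult globins and of 5 gene lists in each of the 8 libraries; each bar is 1 library, coloured by group. Globins, B cell markers, and basophil and mast cell markers are higher in the 4 PARP1-line libraries than in the 4 PARP2-line libraries, while megakaryocyte markers overlap between the lines.

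In PARP1CKO against PARP1 WT, where Hba-a was 1.85-fold higher, 6 of 6 B cell markers were on the higher side (median 0.24) and 3 of 8 basophil and mast cell markers (median -0.01), against 52.1% of all genes. The summed B cell level was 32.6 and 27.7 CPM in PARP1 WT and 28.9 and 40.3 CPM in PARP1CKO libraries, groups that overlapped. The medians of the megakaryocyte, T and NK cell, neutrophil, monocyte and macrophage, osteoclast and eosinophil lists were 0.02, 0.12, -0.07, 0.02, 0.02 and 0.11. The quasi-likelihood test called 0 markers of all 8 lists in this comparison, against 0.106% of all genes. It gave an unadjusted p under 0.05 for 3 of 11 monocyte and macrophage, 1 of 11 neutrophil and 1 of 9 osteoclast markers, against 11.3%. The likelihood-ratio test and DESeq2, which called 1.11% and 0.652% of all genes, called 1, Lyz2 (-0.63), the gene at whose locus the Cre is expressed.

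In PARP2CKO against PARP2 WT, where the globins lay lower, 4 of 6 B cell markers (median -0.15), 8 of 8 basophil and mast cell markers (-0.36), 9 of 9 megakaryocyte markers (-0.13), 3 of 3 T and NK cell markers (-0.36) and 9 of 11 neutrophil markers (-0.13) had a log2 difference below 0. Among all genes 49.3% were above 0. The summed levels of the B cell, megakaryocyte and neutrophil lists overlapped between these groups. The megakaryocyte sum was 398 and 283 CPM in PARP2 WT libraries and 319 and 318 CPM in PARP2CKO libraries. Sums of the basophil and mast cell list and of the T and NK cell list did not overlap, lower in PARP2CKO. The monocyte and macrophage, osteoclast and eosinophil medians were 0.08, 0.24 and 0.01. The quasi-likelihood test again called 0, with an unadjusted p under 0.05 for 6 of 11 monocyte and macrophage, 3 of 8 basophil and mast cell, 2 of 9 osteoclast, 1 neutrophil and 1 eosinophil marker, against 4.83% of all genes. The likelihood-ratio test and DESeq2, which called 0.296% and 0.205% of all genes, called Lyz2 (-0.72), Retnlg (-0.61) and Mmp9 (-0.43). DESeq2 also called Atp6v0d2 (0.31). The part of these cell types in the globin differences, here and between the lines, was not tested.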

How the data were processed

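Total RNA of IMCs was sequenced as single-end reads in 8 libraries, 2 per group. The deposited values are raw counts. To make them, the authors trimmed reads (fastq-mcf), aligned them to mm10 (TopHat2 2.0.12), marked duplicates (Picard 1.127) and ran featureCounts over genes. The annotation, the strand setting and the handling of multiply mapped reads were not given in the sources used here. The table had no column outside the 8 libraries, and CPM were taken over each library's total count times its TMM factor (0.965 to 1.03).

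Counts were tested in R 4.3.3 with edgeR 4.0.16: filterByExpr (13197 of 24062 genes kept; 6520 had no count), TMM scaling and a quasi-likelihood fit of 4 group means to the 8 libraries, with Benjamini-Hochberg adjustment over all genes tested and a threshold of 0.05. Each knockout was compared with the Cre-free group of its line, the 2 knockout effects with each other, and PARP2 WT with PARP1 WT. Log2 CPM used a prior count of 2. With 2 libraries against 2, an exact permutation test cannot give a p below 0.333. Gene positions and exon lengths came from GENCODE, promoters from RefSeq. The fit was tested on simulated data.

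The erythroid genes and the marker lists were chosen with earlier results of these data known. All members were named in every library, with Hba-a1 and Hba-a2 as 1 value. From each list the text takes the genes called and the most abundant genes of the erythroid lists. Some called marker genes are not reported here. Genes of similar pattern were the 3 of highest Pearson r. The alternatives tried were DESeq2 1.42.0 as test or for size factors only, scaling by library size, the likelihood-ratio test, only the libraries compared, no filter, 1 CPM in 2 libraries, a replicate block, leaving out the second alpha globin row, and leaving out each library. Figures were drawn with matplotlib 3.10.9.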

Additional observations from a re-analysis of the deposited data

Results flagged for a closer look

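The Hba-a libraries lay in opposite directions in the mouse lines. Both PARP1CKO libraries lay above both PARP1 WT libraries, and both PARP2CKO libraries below both PARP2 WT libraries. Over all genes that passed the filter, 21% were apart and higher in PARP1CKO, and 18.8% were apart and lower in PARP2CKO. The share with both was not counted. In the PARP2 line the difference of Hba-a was -0.32 ± 0.229 (SE; adjusted p = 0.954, quasi-likelihood test). The difference of the PARP2CKO and PARP1CKO effects was -1.20 on the log2 scale (edgeR's quasi-likelihood test, unadjusted p = 0.00247, adjusted p = 0.384), so it failed the correction over all genes.

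Alas2 showed the same opposite directions in all 8 libraries, on 30 counts in total. This difference was not tested with the filter on low counts. Without the filter it was -3.48 ± 1.58 (SE) with an unadjusted p of 0.0411 and an adjusted p of 0.677.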

How the results depend on the processing

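The count of members called in PARP1CKO against PARP1 WT rose from 0 to 1 (Hba-a) with the likelihood-ratio test (0.88, adjusted p = 0.00319) and with no filter (0.88, adjusted p = 0.0312). The cause was not tested. Leaving out 1 library at a time gave between 0 and 1 calls between the Cre-free groups, where Hba-a ranged from -1.44 to -1.21. Its call was lost without PARP1 WT replicate 1 (adjusted p = 0.0961) and without PARP2 WT replicate 2 (adjusted p = 0.0791). Small values changed sign when a library was left out: Hbb-bt in the PARP1 comparison (-0.25 to 0.79), Car2 in the PARP1 comparison (-0.39 to 0.19), and Epor in the PARP1 comparison (-0.40 to 0.31), the PARP2 comparison (-0.16 to 0.38), their difference (-0.24 to 0.49) and between the Cre-free groups (-0.30 to 0.43). With library size only, Epor between the Cre-free groups (PARP2 WT against PARP1 WT) was -0.029. Hba-a and Hbb-bs kept their direction in all 4 comparisons under every alternative run. Without 1 library, Hbb-bs in the PARP1 comparison ranged from 0.13 to 0.56 and Hba-a in the PARP2 comparison from -0.43 to -0.20. In the difference of the 2 knockout effects, Car2 ranged from 0.06 to 0.64 and Hbb-bt from -1.59 to -0.54. A minimum of 1 CPM in 2 libraries gave no value for members it removed.

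Over all genes, calls in the PARP1 comparison, the PARP2 comparison, their difference and between the Cre-free groups were 14, 7, 2 and 417. They were 146, 39, 72 and 910 with the likelihood-ratio test, 86, 27, 45 and 551 with DESeq2, and 101, 26, 61 and 872 with no filter. With a replicate block they were 14, 6, 3 and 315, and Hba-a had 0.88 (adjusted p = 0.217) in the PARP1 comparison and -1.31 (adjusted p = 0.0261) between the Cre-free groups; the block changed no call among the members. Replicate numbers were not shown to pair libraries, since the correlation of deviations was -0.13 in the PARP1 line and 0.15 in the PARP2 line. A crossed pairing in the PARP1 line, chosen after seeing the data, called 18 genes and 0 members. Depth limits Alas2, Klf1 and Car1, which had at most 10 counts in a library.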
